A study of Mus musculus with 6 samples.

Results

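Oncofetal RNA-binding genes and genes of the insulin-like growth factor (IGF) axis were followed in mouse pancreatic tumour organoids with and without knockdown of Scrib, which encodes a scaffold protein of epithelial cell polarity. The set holds 10 named genes of the 54453 in the count tables: the RNA-binding protein genes Igf2bp1, Igf2bp2, Igf2bp3 and Lin28b, the chromatin gene Hmga2, the noncoding RNA gene H19, the ligand gene Igf2, the binding protein gene Igfbp3 and the receptor genes Igf1r and Insr. The genes were chosen by name with expression values of these same libraries already known, so their levels and differences below are a description and carry no test. After a filter on low counts 6 of the 10 were left in the fit across all genes, namely Igf2bp1, Igf2bp2, Hmga2, Igfbp3, Igf1r and Insr. The other 4, Igf2bp3, Lin28b, H19 and Igf2, are given by their counts.

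The libraries came from 3 organoid lines of the KPC type, a mouse model of pancreatic ductal adenocarcinoma, grown in Matrigel. Each line, T91, T113 or T118, carried either a short hairpin RNA (shRNA) against Scrib, number 5523, or a control hairpin against the Renilla locus, which gave 3 libraries with Scrib shRNA and 3 with Renilla shRNA. All 6 share a genotype labelled KPF/FC, an abbreviation that the labels do not explain. T91 (female) was used at passage 10, T113 (male) at passage 13 and T118 (male) at passage 11. Line, sex and passage therefore cannot be told apart. The treatment label speaks of virus and the design text of plasmids, and number 5523 is the 1 Scrib hairpin that the labels name. With 1 library for each line and hairpin, replicate error inside a line is unknown, and the SDs below are spreads between lines.

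The 3 IGF2BP proteins bind and stabilise messenger RNAs in the embryo. IGF2BP1 and IGF2BP3 are low in most adult tissues and return in many tumours, which is what oncofetal means. IGF2BP2 is also found in many adult tissues. LIN28B blocks the maturation of let-7 microRNAs, and let-7 in turn represses Hmga2, Igf2bp1 and Lin28b itself through matching sites in their 3′ untranslated regions (UTRs), as shown in human and mouse cells. In the IGF axis, IGF2 is a fetal growth factor made from an imprinted locus shared with H19, IGFBP3 binds IGFs outside the cell, and the receptor tyrosine kinases IGF1R and INSR pass the signal on.

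The let-7 family is shown first because 7 of the 10 genes held a match to its seed. The seed is bases 2 to 8 of the mature RNA. In RefSeq annotation of GRCm38.p6, 11 mature mouse microRNA names at 13 loci share the seed GAGGUAG, shown in capitals in 3 of them.
mmu-let-7a-5p: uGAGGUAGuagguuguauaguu
mmu-let-7g-5p: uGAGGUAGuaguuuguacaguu
mmu-miR-98-5p: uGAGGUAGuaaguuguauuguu
These lie at chr13:48538239-48538260 on the minus strand, chr9:106178846-106178867 on the plus strand and chrX:151913229-151913250 on the plus strand. The seed pairs with CTACCTC in DNA letters, which was searched on the sense strand of the longest annotated 3′ UTR of each gene (GENCODE, GRCm38). Igf2bp1, Hmga2 and Lin28b each held 4 such matches. Among all 21037 genes with an annotated 3′ UTR, 9.02% held at least 1 match and 0.152% held 3 or more. Of UTRs within 25% of the same length, 0.264% held as many matches as Igf2bp1, 0.138% as many as Hmga2 and 0.238% as many as Lin28b. Igf1r held 2 matches, Insr, Igf2bp2 and Igf2bp3 held 1 each, and Igf2 and Igfbp3 held none. As many matches were held by 8.83% of UTRs of like length for Igf1r, 25.1% for Insr, 11.5% for Igf2bp2 and 12.9% for Igf2bp3. H19 is noncoding and was not searched. The first match in each of the 7 genes is shown in capitals within 23 bases, with the base of the 3′ UTR, counted from 1 after the stop codon, at which it starts.
Igf2bp1, match from base 1715: gctgtgcgaagtaaaCTACCTCa
Hmga2, match from base 58: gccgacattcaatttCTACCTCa
Lin28b, match from base 36: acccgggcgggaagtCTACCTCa
Igf2bp2, match from base 1313: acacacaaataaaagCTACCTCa
Igf2bp3, match from base 548: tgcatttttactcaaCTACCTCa
Igf1r, match from base 2724: ttttcaaacatttatCTACCTCa
Insr, match from base 2464: tcttctcagtacagtCTACCTCa
Their positions are chr11:95961778-95961800, chr10:120364224-120364246, chr10:45381022-45381044, chr16:22059473-22059495, chr6:49086787-49086809, chr7:68229110-68229132 and chr8:3153198-3153220, all on the minus strand but Igf1r, which is on the plus strand. All 7 first matches are followed by an A, and the share of such matches over all genes was not counted. Igf2bp1 has 3 of its 4 matches followed by an A, whereas Hmga2 and Lin28b have 1 of 4 each and Igf1r 1 of 2. A match is a description of sequence, and let-7 RNA was not analysed here.

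**Figure D1:**
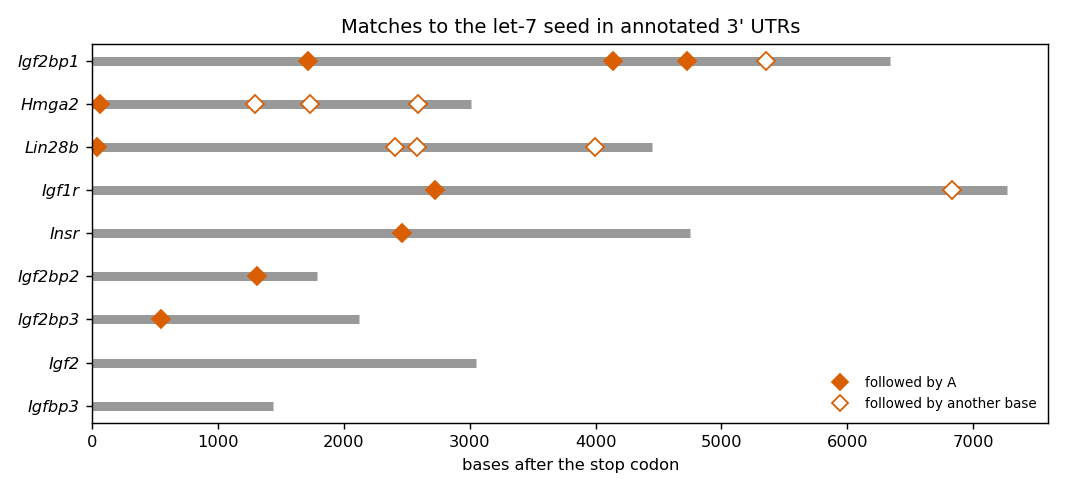
Matches to the let-7 seed (diamonds, filled where an A follows) along the longest annotated 3′ UTR of each protein-coding gene of the set, drawn to scale in bases after the stop codon. Igf2bp1, Hmga2 and Lin28b carry 4 matches each, and Igf2 and Igfbp3 carry none.

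Depth ran between 24035559 and 36235773 estimated counts per library, so 1 count was worth 0.0269 to 0.0421 CPM (counts scaled to the TMM library size) and a count of 3 was worth 0.0808 to 0.126 CPM. Scrib itself stood at 29.7, 35.0 and 30.0 CPM with Scrib shRNA in T91, T113 and T118, against 177, 157 and 158 CPM with Renilla shRNA. That is 19.3% of the control level (log2 fold change -2.38, SE 0.12, adjusted p = 0.00582, edgeR quasi-likelihood test with Benjamini-Hochberg adjustment, lower in 3 of 3 lines). It was the 1 gene of 14169 past the threshold of 0.05. The organoid label fits the markers: 9 epithelial genes summed to 7770 to 10928 CPM with Scrib shRNA and 8516 to 13571 CPM with Renilla shRNA, while 11 fibroblast and mesenchymal genes summed to 1.89 to 9.51 CPM with Scrib shRNA and 1.37 to 2.42 CPM with Renilla shRNA, with Lum at 0 in all 6 libraries. Endothelial, immune, acinar and islet marker lists each summed to at most 5.64 CPM in any library, with Erg, Ptf1a, Ins1 and Ins2 at 0, while neural markers summed to 73.3 to 105 CPM with Scrib shRNA and 77.2 to 102 CPM with Renilla shRNA, nearly all of it Mbp, with Sox10 at 0. The highest fibroblast sum, 9.51 CPM, was in T91 with Scrib shRNA, against 1.37 CPM in T91 with Renilla shRNA. In bulk RNA, fewer cells of a type and less RNA per cell cannot be told apart.

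Set side by side per kilobase of the longest transcript, the 10 genes covered a wide span. Igf2bp2 had the highest mean over the 6 libraries, 23.5 CPM per kb (range 21.7 to 25.7), followed by Hmga2 at 17.9 (11.6 to 23.6). The ranges of these 2 genes overlap over the libraries, although Igf2bp2 was above Hmga2 within each library. Igfbp3 came next at 8.32 CPM per kb, but its range of 0.390 to 25.3 covers most of the other genes. In both T91 libraries Igfbp3 was above Igf2bp2, at 22.6 against 21.7 CPM per kb with Scrib shRNA and 25.3 against 22.9 CPM per kb with Renilla shRNA, so the order of the means does not hold there. Insr averaged 5.72 CPM per kb (3.93 to 7.04) and Igf1r 4.35 (2.93 to 5.78), again overlapping, and Igf2bp1 averaged 1.52 (0.492 to 2.93), with a highest library just above the lowest of Igf1r. Igf2bp3 averaged 0.446 CPM per kb, and Lin28b, H19 and Igf2 were all at or below 0.0307. The order of the means was the same when the length of all annotated exons was used.

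**Figure D2:**
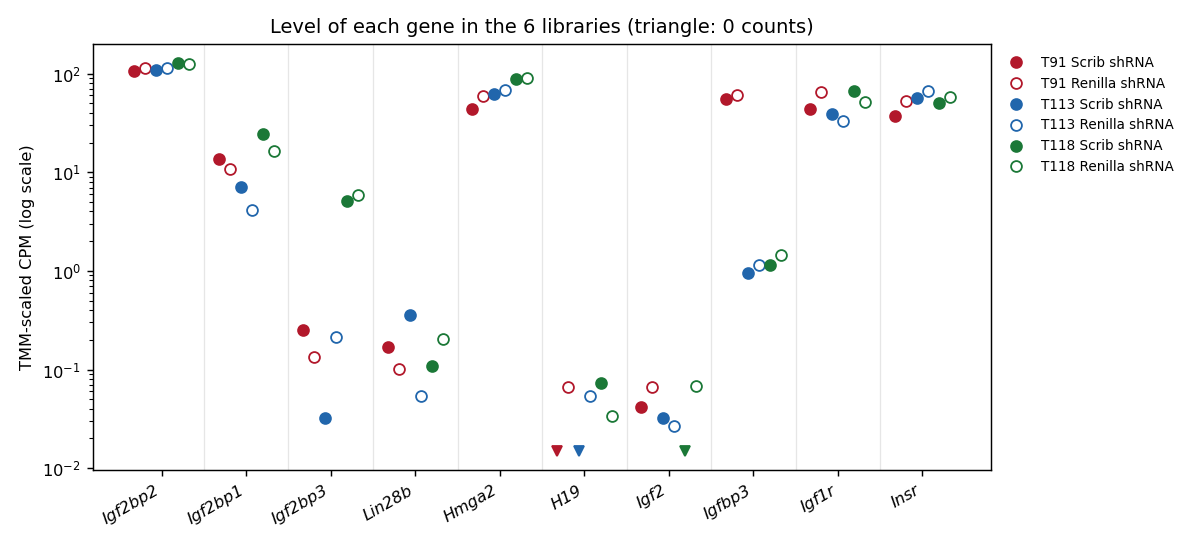
Level of each of the 10 genes in every library, as CPM on a log axis, with 1 point per library, filled for Scrib shRNA and open for Renilla shRNA, and triangles for 0 counts. Igfbp3 is high in both T91 libraries and Igf2bp3 in both T118 libraries, while H19, Igf2 and Lin28b stay near the level of a few counts.

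Igf2bp1 was the gene of the set that was higher with Scrib shRNA in all 3 lines. It is on chromosome 11 (chr11:95957163-96005940, minus strand, GRCm38; ENSMUSG00000013415), and stood at 13.6, 7.13 and 24.5 CPM with Scrib shRNA in T91, T113 and T118, against 10.7, 4.12 and 16.3 CPM with Renilla shRNA. Within each line the Scrib shRNA library was the higher one, but the groups of 3 libraries overlap. The group means were 15.1 ± 8.79 CPM with Scrib shRNA and 10.4 ± 6.09 CPM with Renilla shRNA (SD, n = 3 each). The log2 ratio of Scrib over Renilla shRNA was 0.35 in line T91 (95% interval for counting error alone 0.12 to 0.58). It was 0.79 in T113 (0.49 to 1.10) and 0.59 in T118 (0.42 to 0.76). In the fit with line as a term the log2 fold change was 0.57 (SE 0.15). None of the 6 genes in the fit was called for the hairpin by edgeR, DESeq2 or limma-voom, and edgeR called 0.00706% of all genes tested. At an unadjusted p under 0.05 edgeR had 2 of the 6, Igf2bp1 and Insr, and 6.61% of all genes tested. Being higher in all 3 lines was shared by 14.7% of all genes tested. Whether PCR duplicates were removed is not stated, and the intervals cover counting error only.

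The ratio of long and short transcripts differed between the libraries of a line, and Igf2bp1 has a long transcript, 8378 nucleotides. In the class of 8 to 10 kb (387 genes tested) the median log2 ratio of Scrib over Renilla shRNA was -0.42, -0.06 and 0.13 in T91, T113 and T118. Set against that class, the ratio of Igf2bp1 was 0.77, 0.85 and 0.47 higher in T91, T113 and T118. The difference of the gene from its length class was positive in all 3 lines. The share of all genes with such a difference was not counted, and the part of transcript length in the Igf2bp1 ratio was not tested. The fibroblast marker sum was also higher with Scrib shRNA in T91 and T118 but lower in T113, and its part in these values was not tested.

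Igf2bp2, the family member also found in many adult tissues, held the steadiest level of the 6 genes in the fit. It read 107.4, 109.6 and 127 CPM with Scrib shRNA in T91, T113 and T118, against 113.4, 113.5 and 126 CPM with Renilla shRNA. The libraries of each hairpin overlap, and the range over all 6 was 0.24 on the log2 scale. Of all genes tested 31.9% had a range of at least 1, and the share with a range as small as 0.24 was not counted. The log2 fold change was -0.04 (SE 0.09). Igf2bp2 (ENSMUSG00000033581) lies at chr16:22059009-22163299 on the minus strand.

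Igf2bp3, an IGF2BP paralog that is a known marker of pancreatic cancer in human tissue, stood higher in the T118 libraries than in the other 4. Its level was 0.252, 0.0325 and 5.09 CPM with Scrib shRNA in T91, T113 and T118, against 0.134, 0.216 and 5.90 CPM with Renilla shRNA. In counts these are 6, 1 and 139 with Scrib shRNA, against 4, 8 and 173 with Renilla shRNA, so that both T118 libraries are clear of the other 4. The ratio of the 2 T118 libraries was -0.21 on the log2 scale (95% interval for counting error -0.55 to 0.12). The gene did not pass the low-count filter, so no fitted difference between lines is given. Igf2bp3 (ENSMUSG00000029814, chr6:49085223-49214957, minus strand) overlaps Malsu1 on the other strand, which had 19.1 to 23.3 CPM in all 6 libraries, and the strand setting is not stated, so reads of the 2 genes might not be told apart.

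**Figure D3:**
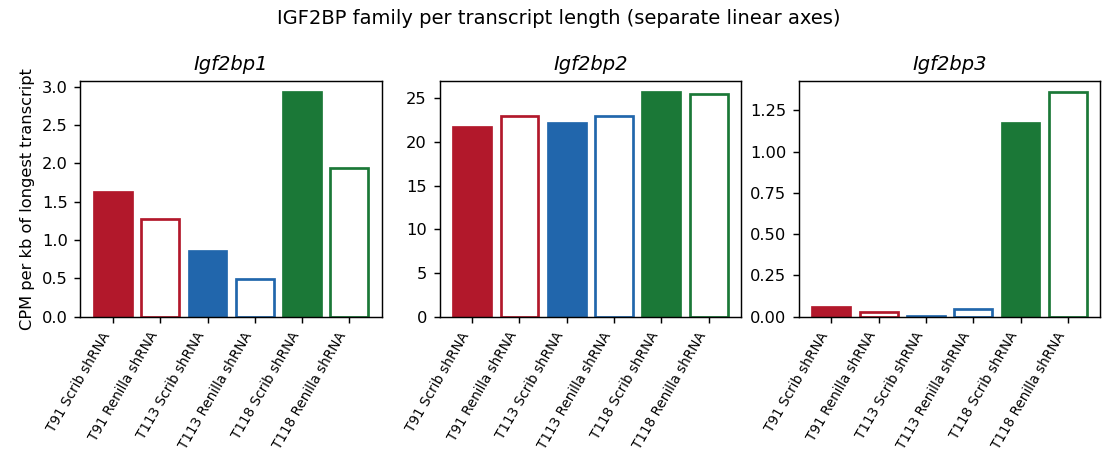
CPM per kb of the longest transcript for the 3 IGF2BP genes, 1 bar per library, filled for Scrib shRNA and open for Renilla shRNA, with a linear axis from 0 of its own for each gene. Igf2bp1 is higher with Scrib shRNA than with Renilla shRNA in each line, Igf2bp2 stays between 21.7 and 25.7 CPM per kb, and Igf2bp3 reaches 1 CPM per kb only in the 2 T118 libraries.

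As a family, Igf2bp2 made up 92.8%, 96.3% and 86.2% of the IGF2BP level per kb with Scrib shRNA in T91, T113 and T118, against 94.6%, 97.7% and 88.5% with Renilla shRNA. Igf2bp1 made up 6.96%, 3.70% and 9.83% with Scrib shRNA, against 5.27%, 2.10% and 6.77% with Renilla shRNA. The summed level was 23.4, 23.0 and 29.8 CPM per kb with Scrib shRNA and 24.2, 23.5 and 28.7 CPM per kb with Renilla shRNA, so it moved little between hairpins within a line. The larger Igf2bp1 share with Scrib shRNA appears in all 3 lines and T118 has the largest sum with either hairpin.

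Lin28b, the RNA-binding protein that blocks let-7, was near the limit of these depths. It had 4, 11 and 3 counts with Scrib shRNA in T91, T113 and T118, against 3, 2 and 6 counts with Renilla shRNA. The T113 library with Scrib shRNA is the one that stands out, with 11 counts against 2 and a log2 ratio of 2.73 (95% interval for counting error 0.54 to 5.95), whereas in T118 the higher library is the Renilla one. H19, the imprinted noncoding RNA, had 0, 0 and 2 counts with Scrib shRNA and 2, 2 and 1 counts with Renilla shRNA. Igf2 had 1, 1 and 0 counts with Scrib shRNA and 2, 1 and 2 counts with Renilla shRNA. For H19 and Igf2 no library passed 3 counts, so a difference was not detectable at this depth. Both lie on chromosome 7, H19 (ENSMUSG00000000031) at chr7:142575529-142578143 and Igf2 (ENSMUSG00000048583) at chr7:142650766-142666816, and Lin28b (ENSMUSG00000063804) is at chr10:45376620-45486395, all on the minus strand. Igf1, Ins1 and Ins2, the other ligand genes of the axis, had no count in any library, and Lin28a reached at most 0.252 CPM.

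Hmga2, an architectural chromatin protein of embryonic and tumour cells, stood at 44.0, 61.8 and 87.4 CPM with Scrib shRNA in T91, T113 and T118, against 59.2, 67.6 and 90.0 CPM with Renilla shRNA. Each line had the lower value with Scrib shRNA, and the hairpin groups overlap. The group means were 64.4 ± 21.8 CPM with Scrib shRNA and 72.3 ± 15.9 CPM with Renilla shRNA (SD, n = 3 each). The log2 ratio was -0.43, -0.13 and -0.04 in T91, T113 and T118. The 95% interval for counting error was -0.54 to -0.32 in T91 and -0.22 to -0.04 in T113. In T118 it was -0.12 to 0.04, which includes 0. The fitted log2 fold change was -0.20 (SE 0.11). Less the median of its class of transcripts of 2 to 4 kb, the ratios were -0.46, -0.13 and -0.03. Between lines Hmga2 differed most for T91 less T118, by -0.79 (SE 0.13). The gene (ENSMUSG00000056758) lies at chr10:120361275-120476469 on the minus strand.

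**Figure D4:**
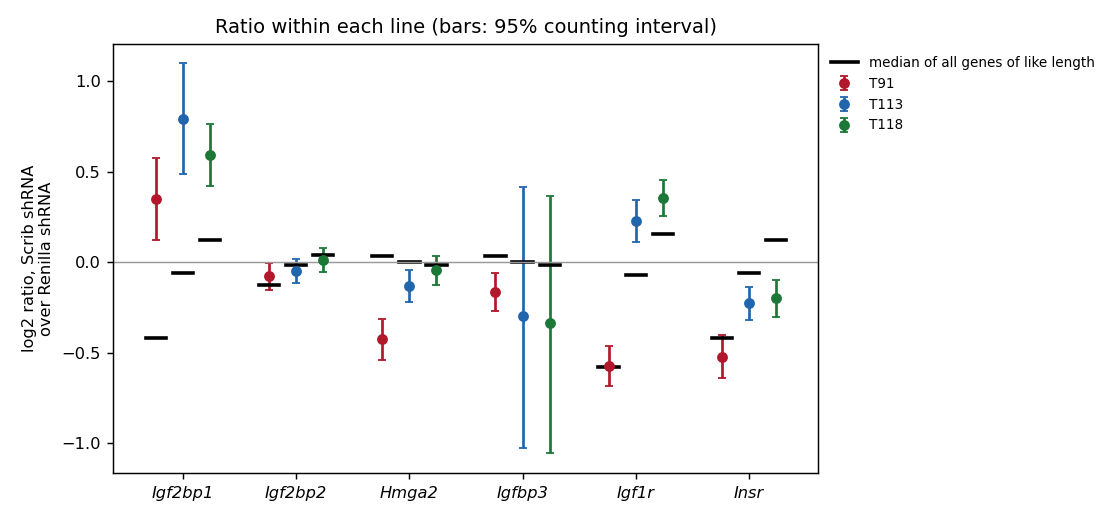
Log2 ratio of Scrib shRNA over Renilla shRNA in each line for the 6 genes in the fit, with bars for the 95% interval of counting error and a black dash at the median of all tested genes of like transcript length in that line. Igf2bp1 is above 0 in all 3 lines, Hmga2, Igfbp3 and Insr are below 0 in all 3, and Igf1r is below 0 in T91 and above 0 in T113 and T118.

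Igfbp3, which holds IGFs in complexes outside the cell, was high in T91 and low in the other lines. Its level was 54.8, 0.944 and 1.13 CPM with Scrib shRNA in T91, T113 and T118, against 61.4, 1.16 and 1.43 CPM with Renilla shRNA. Both T91 libraries are far above the other 4 whichever hairpin they carry. The difference was 5.78 (SE 0.17) on the log2 scale for T91 less T113 and 5.50 (SE 0.17) for T91 less T118, which is 55.1-fold and 45.2-fold, and -0.29 (SE 0.19) for T113 less T118. The log2 ratio of Scrib over Renilla shRNA was -0.16, -0.30 and -0.34 in T91, T113 and T118, and the T113 and T118 values rest on 29 to 43 counts per library. The fitted log2 fold change was -0.24 (SE 0.13). The 11 fibroblast and mesenchymal markers summed to 1.37 CPM in the T91 library with Renilla shRNA, where Igfbp3 stood at 61.4 CPM. They summed to 9.51 CPM in the T91 library with Scrib shRNA, where Igfbp3 stood at 54.8 CPM. The part of such cells in the Igfbp3 values was not tested. Igfbp3 (ENSMUSG00000020427) is at chr11:7206086-7213923 on the minus strand.

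The receptor gene Igf1r read 43.5, 39.1 and 65.9 CPM with Scrib shRNA in T91, T113 and T118, against 64.5, 33.4 and 51.6 CPM with Renilla shRNA. The Scrib shRNA library was the lower one in T91 and the higher one in T113 and T118, with log2 ratios of -0.57, 0.23 and 0.35. The fitted log2 fold change was 0.01 (SE 0.19), and its sign turned in 5 of 10 alternative fits. The 2 hairpin groups overlap, with means of 49.5 ± 14.4 CPM with Scrib shRNA and 49.8 ± 15.7 CPM with Renilla shRNA (SD, n = 3 each). Igf1r has the longest transcript of the set at 11409 nucleotides, and the median of all tested transcripts of 10 kb or more was -0.58, -0.07 and 0.16 in T91, T113 and T118. Against that class Igf1r differed by 0.01, 0.30 and 0.20. The gene (ENSMUSG00000005533) is at chr7:67952827-68233668 on the plus strand.

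Insr, the insulin receptor gene, was lower with Scrib shRNA in all 3 lines. Its level was 36.8, 56.3 and 50.8 CPM with Scrib shRNA in T91, T113 and T118, against 52.8, 65.9 and 58.3 CPM with Renilla shRNA, and the 2 groups overlap. Group means were 47.9 ± 10.0 CPM with Scrib shRNA and 59.0 ± 6.58 CPM with Renilla shRNA (SD, n = 3 each), with a fitted log2 fold change of -0.32 (SE 0.11) and ratios of -0.52, -0.23 and -0.20 in T91, T113 and T118. With 9355 nucleotides Insr is in the class of 8 to 10 kb, and against it the ratios were -0.10, -0.17 and -0.32. Its locus (ENSMUSG00000005534) is chr8:3122061-3279617 on the minus strand. Insr, Hmga2 and Igfbp3 were the 3 of 6 genes lower with Scrib shRNA in all lines, a pattern seen in 15.5% of all genes tested.

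Differences of the set between lines are given as a description too. In the fit with hairpin as a term, 3 of the 6 genes, Igf2bp1, Hmga2 and Igfbp3, were past the threshold for any difference between lines, where 14.0% of all genes tested were. Igf2bp1 and Igfbp3 were called higher in T91 than in T113, as were 3.17% of all genes tested. Igfbp3 was called higher in T91 than in T118 (5.80% of all genes), and Igf2bp1 and Hmga2 lower (5.24%). Igf2bp1 was called lower in T113 than in T118 (4.91%). The log2 difference of Igf2bp1 was 1.15 (SE 0.18) for T91 less T113, -0.72 (SE 0.18) for T91 less T118 and -1.88 (SE 0.18) for T113 less T118. Its level was highest in T118 and lowest in T113 with either hairpin. The call of Igf2bp1 for T91 less T118 was lost in 8 of 14 alternative fits. The genes whose pattern over the 6 libraries was most like that of Igf2bp1, by root mean square difference of centred log2 CPM, were Wnt4 (0.198), Procr (0.250) and Id1 (0.257). Wnt4 had 19.2, 9.57 and 28.1 CPM with Scrib shRNA in T91, T113 and T118, against 11.5, 6.74 and 22.9 CPM with Renilla shRNA. For Igfbp3 they were Sox4 (0.307), Mmp14 (0.470) and Basp1 (0.588). Igf2bp1 and Igfbp3 were the genes of the set in the fit whose log2 CPM ranged over at least 2, as it did in 11.8% of genes tested.

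Among the other ligands, receptors and binding proteins of the axis, 5 of 16 genes passed the count filter. All 5 passed the test of any difference between lines, beside 14.0% of all genes tested. The lists here and below were chosen with earlier results of these data known, so their counts are a description. Igfbp4, another IGF binding protein, had 88.1, 20.8 and 2.88 CPM with Scrib shRNA in T91, T113 and T118, against 106, 19.02 and 2.65 CPM with Renilla shRNA (T91 less T118 5.12, adjusted p = 8.25e-05, edgeR quasi-likelihood test). Igfbp7, a related secreted protein, had 65.3, 31.1 and 19.2 CPM with Scrib shRNA and 50.1, 25.1 and 16.0 CPM with Renilla shRNA (T91 less T118 1.71, adjusted p = 0.000629, edgeR). Stc1, an inhibitor of the IGFBP-cleaving protease pappalysin, had 13.3, 5.08 and 0 CPM with Scrib shRNA and 23.1, 9.32 and 0.137 CPM with Renilla shRNA (adjusted p for lines 0.000609, edgeR). Igfbp4, Igfbp7 and Stc1 were highest in T91 and lowest in T118 with either hairpin. Igf2r, the receptor that clears IGF2, ran the other way, with 125, 211 and 220 CPM with Scrib shRNA and 167, 217 and 257 CPM with Renilla shRNA (T91 less T118 -0.72, adjusted p = 0.0186, edgeR), and Airn overlaps it on the other strand. Stc2, named to complete the count of 5 after its values were seen, had 248, 202 and 131 CPM with Scrib shRNA and 247, 246 and 172 CPM with Renilla shRNA (adjusted p for lines 0.0318, edgeR).

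**Figure D5:**
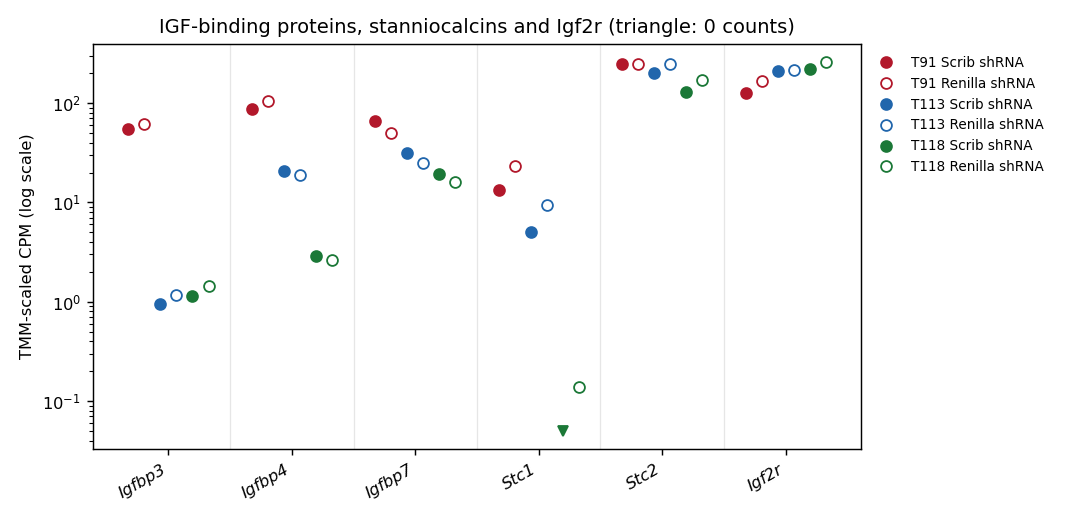
CPM on a log axis for Igfbp3 and the 5 other extracellular and receptor genes of the IGF axis past the count filter, with 1 point per library, filled for Scrib shRNA and open for Renilla shRNA, and a triangle for 0 counts. Igfbp3, Igfbp4, Igfbp7 and Stc1 are highest in the T91 libraries, and Igf2r is lowest there.

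Downstream of the receptors, 1 of 25 signalling genes passed the test of any difference between lines, beside 14.0% of all genes tested. It was Foxo3, a transcription factor restrained by insulin signalling, with 55.3, 49.7 and 30.9 CPM with Scrib shRNA and 60.5, 56.2 and 39.7 CPM with Renilla shRNA (adjusted p for lines 0.0211, edgeR). Eif4ebp1, a repressor of translation, missed that test but passed for T91 less T118 alone (adjusted p = 0.0495, edgeR). Irs2, an adaptor of both receptors, had a hairpin log2 fold change of -0.28 (unadjusted p = 0.0226, adjusted p = 0.744, edgeR) and lower values with Scrib shRNA in 3 of 3 lines. The median hairpin log2 fold change of the 25 genes was -0.03, beside -0.01 for all genes tested. It was -0.22 for the 5 ligand, receptor and binding protein genes, 0.01 for the LIN28 and let-7 list, 0.025 for messenger RNAs bound by IGF2BP proteins, -0.15 for imprinted genes and -0.06 for fetal-type genes.

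In the LIN28 and let-7 list, 20 of 24 genes found passed the count filter, and 2 passed the test of any difference between lines (14.0% of all genes tested). Trim71, an embryonic RNA-binding ubiquitin ligase and let-7 target, had 1.77, 16.6 and 0.256 CPM with Scrib shRNA and 3.32, 20.7 and 0.512 CPM with Renilla shRNA (T113 less T118 5.63, adjusted p = 0.000558, edgeR), and was highest in T113 with either hairpin. Ccnd2, a cyclin, was at 684, 664 and 1151 CPM with Scrib shRNA and 869, 626 and 1072 CPM with Renilla shRNA (T113 less T118 -0.79, adjusted p = 0.0241, edgeR). Dis3l2, an exonuclease that degrades uridylated let-7 precursors, missed that test (adjusted p = 0.0652, edgeR) but passed for T113 less T118 alone, with 0.53 (adjusted p = 0.0472, edgeR). Of the messenger RNAs known to be bound by IGF2BP proteins, 1 of 15 tested passed the test of any difference between lines. It was Fscn1, an actin-bundling gene, with 93.2, 10.6 and 7.80 CPM with Scrib shRNA and 97.3, 5.52 and 2.94 CPM with Renilla shRNA (T91 less T113 3.67, adjusted p = 0.00461, edgeR). Actb, which encodes beta-actin, missed that test (adjusted p = 0.0698, edgeR) but passed for T113 less T118 alone, with -0.48 (adjusted p = 0.0429, edgeR). Myc, the best known IGF2BP1 target, had 171, 123 and 151 CPM with Scrib shRNA and 140, 92.8 and 149 CPM with Renilla shRNA, a log2 fold change of 0.24 (adjusted p = 0.772, edgeR). Over the 6 lists of pathway, imprinted and fetal-type genes, 105 genes were tested for the hairpin. None was called by edgeR (9 at an unadjusted p under 0.05, beside 6.61% of all genes tested) or limma-voom, and DESeq2 called 1, Onecut2.

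Among 33 imprinted genes, 17 were tested and 3 passed the test of any difference between lines, a share close to the 14.0% of all genes tested. Ddc, which encodes an amino acid decarboxylase, had 1.26, 10.1 and 43.4 CPM with Scrib shRNA and 0.771, 12.3 and 60.9 CPM with Renilla shRNA (T91 less T118 -5.69, adjusted p = 0.000193, edgeR). Phlda2, which restrains placental growth, and Snrpn, a spliceosome gene, were the others, with adjusted p values for lines of 0.0104 and 0.0474 (edgeR). In the list of fetal-type epithelial and oncofetal genes, 16 of 24 tested passed the test of any difference between lines, beside 14.0% of all genes tested. In the pairwise tests 10 were higher in T91 than in T113 (3.17% of all genes), 10 were higher in T91 than in T118 (5.80%) and none was lower in T91. For T113 against T118, 4 were higher and 6 lower, beside 757 and 695 of all 14169 genes tested. This list too was chosen with earlier results of these data known, so its counts are a description and carry no test. Sox4, a progenitor transcription factor, had 36.0, 0.846 and 0.951 CPM with Scrib shRNA and 51.7, 1.46 and 1.67 CPM with Renilla shRNA (T91 less T118 5.08, adjusted p = 8.25e-05, edgeR). It is the gene listed above as most like Igfbp3. Onecut2, a transcription factor of liver and pancreas development, had 103, 34.5 and 7.83 CPM with Scrib shRNA and 163, 52.7 and 18.2 CPM with Renilla shRNA, a hairpin log2 fold change of -0.81 (unadjusted p = 0.000901, adjusted p = 0.501, edgeR) and lower values in 3 of 3 lines.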

How the data were processed

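RNA was sequenced from 6 organoid libraries, 3 lines by 2 hairpins. The deposited values are estimated counts for each Ensembl gene in a table per library, made by the authors with Salmon 1.4.0 and DESeq 2 on GRCm38 (mm10), per the submitters' processing notes. The labels and notes name no transcript annotation, strand setting or duplicate handling. Salmon divides reads among similar transcripts by estimation, so close paralogs can trade counts.

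Here the estimated counts were rounded and analysed in R 4.3.3 with edgeR 4.0.16. Genes were filtered with filterByExpr on hairpin groups (minimum count 10), which kept 14169 genes with 99.8% to 99.9% of counts. TMM-scaled libraries were fitted with line and hairpin terms (robust quasi-likelihood, two-sided, Benjamini-Hochberg, threshold 0.05). Each SE was derived from the test, as the absolute log2 fold change or difference over the square root of its F statistic. Gene symbols matched 54200 of 54453 identifiers in GENCODE vM21. Residual degrees of freedom were 2, prior ones 4.43 and the biological coefficient of variation 15.5%. Lines pair the libraries: deviations from group means correlated across genes at 0.621, 0.666 and 0.662 in T91, T113 and T118. No 2 libraries were identical. Alternatives included DESeq2 1.42.0 and limma 3.58.1 (voom).

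The 10 genes and the lists were chosen with earlier results of these data known. Named list genes are up to 4 per list by smallest p for lines and up to 3 for the hairpin, and the genes most like a member are the 3 with the smallest root mean square difference (average log2 CPM of at least 2, prior count 2). Ratio intervals are 95% exact counting intervals. The microRNA sequences come from RefSeq annotation, and the 3′ UTR sequences from GENCODE vM21 transcripts (GRCm38).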

Additional observations from a re-analysis of the deposited data

Results flagged for a closer look

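Igf1r moved in opposite directions in the lines: its log2 ratio of Scrib over Renilla shRNA was -0.57, 0.23 and 0.35 in T91, T113 and T118. The difference between lines was not tested, since each line had 1 library per hairpin. The medians of all tested transcripts of 10 kb or more, the class of Igf1r, were -0.58, -0.07 and 0.16 in T91, T113 and T118, and the part of transcript length in the Igf1r values was not tested.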

How the results depend on the processing

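Of 76 alternative values for the whole-table results, 52 stayed within the limits set around the value in the text, and 24 moved. The limits were direction and threshold for the Scrib fold change, and a set fold difference for counts of genes. All 24 that moved were counts. The count called for the hairpin, 1 gene, was 1 without the replicate block of lines (Scrib -2.38), 64 without the low-count filter, 63 with DESeq2, 8 with limma-voom and 9 to 94 when 1 line was left out (94 without T91, 25 without T118, 9 without T113). With an average CPM of at least 5, lines gave 1308 genes for any difference, 1028 for T91 against T118 and 951 for T113 against T118. Leaving out 1 library gave 1274 to 4328 for any line, 405 to 1819 for T91 against T113, 1298 to 2800 for T91 against T118 and 434 to 3433 for T113 against T118. Scrib ran from -2.48 to -2.28 without a line.

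No gene of the set was called for the hairpin under any of 10 alternatives, over which Igf2bp1 ran from 0.48 to 0.68, Hmga2 from -0.28 to -0.09, Igfbp3 from -0.32 to -0.17 and Insr from -0.37 to -0.21 on the log2 scale. Igf1r, at 0.01, turned to -0.01 without the replicate block (-0.0097), to -0.014 without the filter, to -0.0019 with the stricter filter, and ran from -0.17 to 0.29 when a line was left out (-0.17 without T118, -0.10 without T113, 0.29 without T91). For T91 less T118 it turned to 0.28 without the T91 Scrib shRNA library and to 0.12 without the T118 Scrib shRNA library. Igf2bp1 missed the threshold for T91 less T118 in 8 of 14 alternatives (total counts, stricter filter, no hairpin term, and without any 1 library but T91 with Renilla shRNA; all values -0.89 to -0.57, adjusted p from edgeR up to 0.176). For T91 less T113 it missed it in 3 of 14 (no hairpin term and without either T113 library; all values 0.99 to 1.31). The number of the 6 genes called between lines, 3, was 2 without either T113 library, 4 without the T91 Scrib or the T118 Renilla shRNA library and 5 without the T91 Renilla shRNA library. Pairwise calls were also gained: Igf1r in 4 of 14 alternatives for T113 less T118 and in 1 each for T91 less T113 and T91 less T118, Hmga2 in 4 for T113 less T118 and 1 for T91 less T113, and Insr in 4 for T91 less T113 and 1 for T91 less T118. Depth limits H19, Igf2 and Lin28b, and 1 library per line and hairpin limits every comparison.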

Other observations

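Genes with 3 or more let-7 seed matches in the 3′ UTR, 22 of those tested, had median log2 ratios of Scrib over Renilla shRNA of -0.39, -0.15 and -0.01 in T91, T113 and T118, against 0.01, 0.00 and -0.01 for 10882 genes with no match. Igf2bp1 and Hmga2 are among the 22. Igf2bp1 went the other way, with 0.35, 0.79 and 0.59 in T91, T113 and T118, and Hmga2 had -0.43, -0.13 and -0.04. The 1265 genes with 1 match or more had medians of -0.097, -0.025 and 0.015 in T91, T113 and T118. Transcript length moves with these values in T91, where genes of 6 to 8 kb had a median of -0.31 and genes under 2 kb a median of 0.20, and its part was not tested.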
